A study of Mus musculus with 16 samples.

Results

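The cytoplasmic ribosomal protein genes were followed by their total and allele-specific reads in F1 hybrid mouse neural cells. A gene counted as a member if its symbol was Rpl or Rps with a number and an optional letter or l suffix, or was Rpsa, Rplp0, Rplp1 or Rplp2, which gave 84 of the 50600 genes in the count tables, 51 of the large (Rpl) and 33 of the small (Rps) ribosomal subunit. The rule uses symbols alone, although it was set with earlier results of these data known. Pseudogenes with Gm or -ps symbols and the ribosomal S6 kinases were not counted, while Rps4y2, which RefSeq lists as the transcribed pseudogene Rps4l, met the rule and stayed in. The members lie on 19 chromosomes, 4 of them on the X chromosome.

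All cells were 129Sv x Cast/EiJ hybrids, in which 129Sv is the maternal and Cast/EiJ the paternal strain. Neural progenitor cells (NPCs) were derived from embryonic stem cells and grown with EGF and FGF2, and each line came from a single cell. RNA was enriched for poly(A) in 5 astrocyte clones (the female Astro_129, Astro_C2 and Astro_G4 and the male Astro_mC3 and Astro_mE6), which had received BMP4 at 10 ng/mL for 48 h, and in 3 untreated NPC clones (the female NPC_F5 and the male NPC_mG2 and NPC_mG6), with 1 library for each clone. By the study's methods, the astrocyte medium also held less FGF2 than the NPC medium, and EGF is not listed for it. BMP4 was thus not the only difference in culture between these groups. The untreated male NPC clones Ch3, Ch5, Ch7 and Ch8 were sequenced as 2 libraries each from RNA depleted of ribosomal RNA. Among these 16 libraries no clone is present both as NPC and as astrocyte (NPC data of the astrocyte clones from earlier work were not used here), so clone and cell type cannot be told apart, and a p-value measures the spread between these clones. Reads on genes ranged from 69925081 to 105892734 in the poly(A) libraries and from 20871111 to 30920672 in the Ch libraries.

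Each ribosome holds a single copy of nearly every ribosomal protein, so cells make these proteins in equal numbers, from single-copy genes scattered over the genome. Their mRNAs begin with a C followed by a run of pyrimidines, the 5′ terminal oligopyrimidine (TOP) tract, through which mTOR signalling and the binding protein Larp1 control translation, and their demand is highest in growing and dividing cells. Ribosomal protein mRNAs have also left many processed pseudogenes in mammalian genomes, which makes short reads from them hard to place.

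The starts of 7 of the 10 members with the lowest log2 fold change in astrocytes, and of Rpl24 and Rpl34, whose change was close to 0, are shown as RefSeq gives them on GRCm38.p6, 15 bases either side of the annotated start and 5′ to 3′ on the gene's strand. Capitals mark every run of a C followed by at least 5 further C or T.
Rpsa, chr9:120127751-120127780 (+): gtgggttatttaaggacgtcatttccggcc
Rps6, chr4:86857353-86857382 (-): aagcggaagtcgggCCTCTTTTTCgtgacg
Rpl28, chr7:4792950-4792979 (+): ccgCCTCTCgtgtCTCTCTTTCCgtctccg
Rpl13a, chr7:45128731-45128760 (-): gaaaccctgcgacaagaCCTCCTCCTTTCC
Rps25, chr9:44407699-44407728 (+): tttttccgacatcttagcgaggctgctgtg
Rpl12, chr2:32961697-32961726 (+): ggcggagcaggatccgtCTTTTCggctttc
Rpl10a, chr17:28328456-28328485 (+): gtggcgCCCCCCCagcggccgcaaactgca
Rpl24, chr16:55966260-55966289 (+): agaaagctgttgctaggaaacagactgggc
Rpl34, chr3:130730384-130730413 (-): cgCCTTCCCTgacgtaCTTCCTgtccggcg
The run of Rps6 spanned the annotated start, while that of Rpl10a ended before it. Rpsa, Rps25 and Rpl24 had no such run in this window. RefSeq gave a start for 63 of the 84 members, and 36 of them (57.1%) had a run on the gene's strand within the window, against 25.5% of all 27025 genes with an entry. The median log2 fold change in astrocytes was -1.03 for the 35 tested members with a run and -0.80 for the 25 without, both below 0. A run is a description of these letters, not a mapped start of transcription.

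Ribosomal protein genes took up a smaller share of the RNA in astrocytes than in poly(A) NPCs. Of all reads on genes, the members held 1.98% in Astro_129, 1.40% in Astro_C2, 1.86% in Astro_G4, 1.78% in Astro_mC3 and 2.13% in Astro_mE6, and 4.40% in NPC_F5, 3.73% in NPC_mG2 and 2.51% in NPC_mG6. The mean was 1.83% ± 0.275 (SD, n = 5) in astrocytes and 3.54% ± 0.959 (SD, n = 3) in NPCs, and the groups did not overlap, although NPC_mG6 lay closer to Astro_mE6 than to the other NPC clones. The ribosomal RNA-depleted Ch libraries held 1.88% to 2.63%, below the poly(A) NPCs except NPC_mG6, and cell type and preparation both differ between those libraries and the astrocytes. In bulk RNA, fewer cells of a kind and less RNA per cell cannot be told apart.

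**Figure D1:**
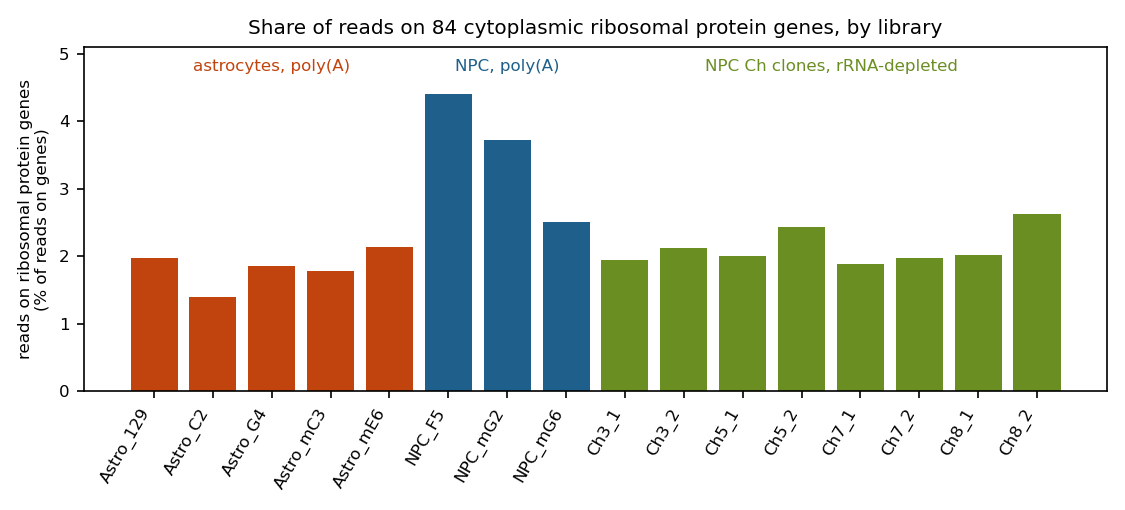
Reads on the 84 ribosomal protein genes as a percent of all reads on genes (vertical axis), for each of the 16 libraries (1 bar a library, orange for astrocytes, blue for poly(A) NPC, green for ribosomal RNA-depleted NPC). The 5 astrocyte bars lie between 1.40% and 2.13%, all below the 3 poly(A) NPC bars.

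Gene by gene, 57 of the 81 members tested were lower in astrocytes and 0 were higher (edgeR's quasi-likelihood test, Benjamini-Hochberg adjusted p under 0.05 over 18192 genes), where 12.6% of all genes tested were lower and 13.0% were higher. Of the other 24 members, 21 had a negative and 3 a positive log2 fold change. The median log2 fold change of the members was -0.90, a 1.87-fold lower level, with an interquartile range of -1.18 to -0.74, against a median of 0.08 over all genes. The subunits moved alike, with 34 of 48 large subunit genes (median -0.91) and 23 of 33 small subunit genes (median -0.89) lower. Every astrocyte library lay below every NPC library for 51 of the 81 members, as for 16.3% of all genes tested. The number of lower members fell to 26 without NPC_mG2 and to 36 without Astro_mC3, and without NPC_F5 27 were lower and 1 higher. Fewer libraries lower the power for every gene, and the shares of all genes called in those runs are not given here.

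**Figure D2:**
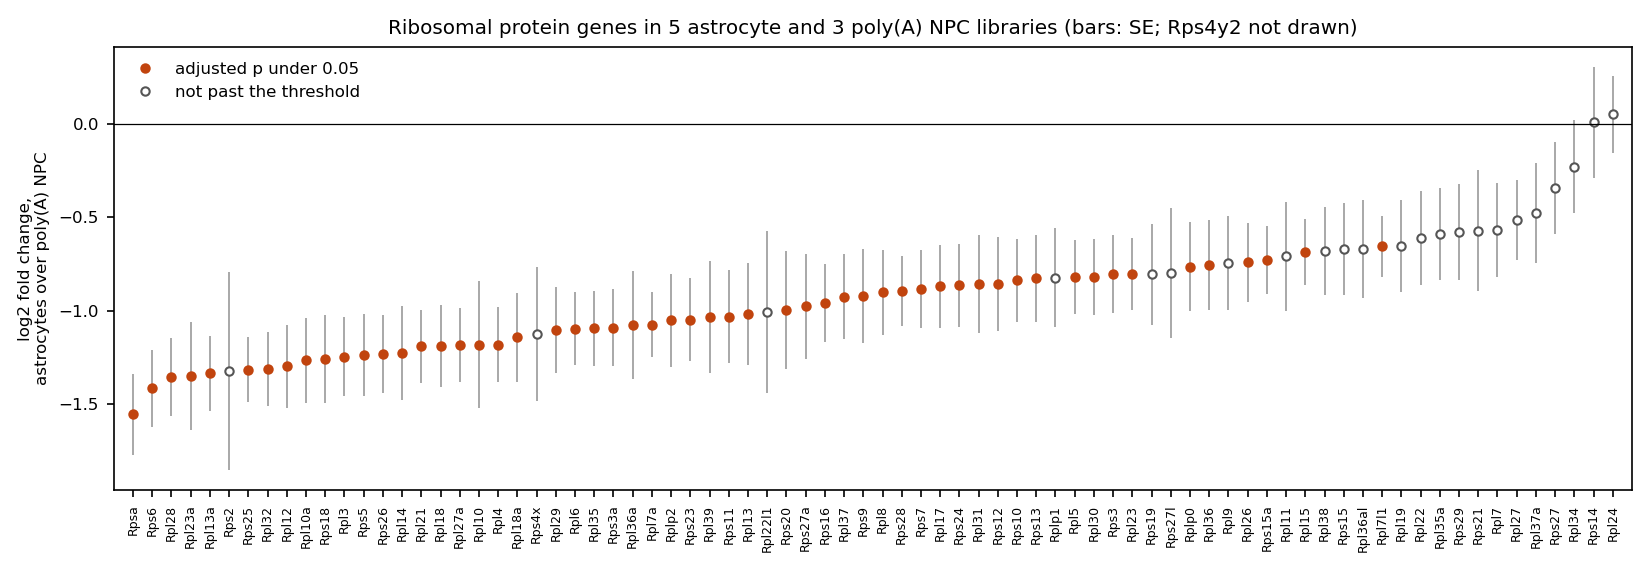
Log2 fold change of astrocytes over poly(A) NPC (vertical axis, bars are SE) for 78 of the 81 tested members, ordered by their change (horizontal axis). Filled points passed an adjusted p of 0.05. All filled points lie below 0, from Rpsa at -1.55 to Rpl7l1 at -0.66. Rps4y2, at 2.17, is not drawn.

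Among small subunit genes, Rpsa, Rps6 and Rps25 had some of the lowest log2 fold changes. Rpsa (ENSMUSG00000032518.6, chr9:120127766-120132369), which was first described as a laminin receptor and is needed to build the small subunit, was counted at 184, 146, 231, 194 and 225 CPM (reads scaled to the effective library size) in Astro_129, Astro_C2, Astro_G4, Astro_mC3 and Astro_mE6, and at 741, 513 and 472 CPM in NPC_F5, NPC_mG2 and NPC_mG6. All 5 astrocyte values were under those of the NPCs, a 2.94-fold lower level (log2 fold change -1.55, SE 0.22, adjusted p = 0.00227). Rps6, the substrate of the S6 kinases downstream of mTOR, had 39.8, 37.3, 50.03, 35.1 and 44.3 CPM in the astrocyte libraries, in the same order, and 142, 107 and 80.7 CPM in the NPC libraries (2.66-fold lower, adjusted p = 0.00276). Rps25, which some viral RNAs need to recruit ribosomes, was 2.49-fold lower (63.0 ± 7.82 CPM, SD, n = 5, against 157 ± 28.9, n = 3).

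Among large subunit genes the lowest were Rpl28, Rpl23a, Rpl13a, Rpl32, Rpl12 and Rpl10a, from 2.56-fold to 2.40-fold lower (adjusted p between 0.00317 and 0.0118). Rpl13a, which as a free protein also represses translation of inflammatory mRNAs, had 31.6, 28.4, 31.6, 41.0 and 46.1 CPM in the astrocytes and 88.4, 106 and 76.4 CPM in the NPCs. Rpl12, at the base of the stalk that recruits elongation factors, had 159, 120, 157, 149 and 193 CPM in the astrocytes and 451, 427 and 267 CPM in the NPCs. In both genes the groups did not overlap, and NPC_mG6 was the lowest of the NPC clones. The 10 called members with the smallest decrease (Rpl5, Rpl30, Rps3, Rpl23, Rplp0, Rpl36, Rpl26, Rps15a, Rpl15 and Rpl7l1) had log2 fold changes from -0.82 to -0.66.

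The members with the most reads were Rpl4, Rplp0, Rpl7, Rpl3 and Rps4x. Rpl4, which lines the tunnel of the growing peptide, had 729, 560, 717, 653 and 724 CPM in the astrocytes and 1842, 1540 and 1220 CPM in the NPCs (2.27-fold lower, adjusted p = 0.00503). Rpl3, next to the catalytic centre, was 2.37-fold lower (adjusted p = 0.00479). Rplp0, the core of the stalk, was 1.70-fold lower, with an adjusted p of 0.0466, and its NPC_mG6 value of 884 CPM lay under that of Astro_mE6, 899 CPM. Rpl7 had an adjusted p of 0.13, with 1035 CPM in Astro_129 and 902 CPM in NPC_mG6.

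Since the proteins are needed in equal numbers, levels were also set per kilobase of coding sequence. In the poly(A) NPCs the 81 members had a median of 904 CPM per kilobase, with 2318 for Rps29 at the top and, among the lowest, 52.8 for Rpl24, 78.9 for Rpl7a, 84.4 for Rpl10 and 88.1 for Rpl21. The coding sequence of Rpl21 had 79 near-full-length copies in the mouse genome (at least 80% of its length at 90% identity, without introns, in the NCBIM37 assembly), that of Rpl7a 78, Rpl10 11 and Rpl24 6. Over the 81 members the median was 9 copies. At 98% identity or more, Rpl21 had 15 such copies, Rpl7a 11, Rpl10 7 and Rpl24 2. The part that reads placed on pseudogenes play in these levels was not tested.

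A few members did not fall. Rps14, in the decoding platform of the small subunit, had 385, 388, 725, 402 and 652 CPM in the astrocytes and 634, 506 and 385 CPM in the NPCs, a log2 fold change of 0.01 (SE 0.29, adjusted p = 0.989). Rpl24 had 32.2, 28.6, 22.6, 23.9 and 22.1 CPM against 19.99, 28.0 and 27.0 CPM (log2 fold change 0.05, SE 0.20, adjusted p = 0.886). The groups overlapped in both genes. A change of the size of their SE would not have been detectable here. Rpl34 (-0.23, adjusted p = 0.532) and Rps27 (-0.35, adjusted p = 0.333) followed. Rps2 missed the threshold at a log2 fold change of -1.32 (adjusted p = 0.0985) with an NPC_mG2 value of 288 CPM against 85.3 and 51.7 CPM in the other NPC clones, and its coding sequence has 51 genomic copies.

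Of the paralogs with an l suffix, 1 passed the test. Rpl7l1, a relative of Rpl7, was lower in astrocytes (83.8 ± 11.4 CPM, SD, n = 5, against 132 ± 15.3, n = 3, adjusted p = 0.0204). Rps27l, a p53 target, had 70.5, 53.4, 82.3, 129 and 165 CPM in the astrocytes and 190, 182 and 149 CPM in the NPCs, so that Astro_mE6 overlapped the NPCs (log2 fold change -0.80, adjusted p = 0.125). Rpl36al (log2 fold change -0.67, adjusted p = 0.0936) and Rpl22l1 (-1.01, adjusted p = 0.12) did not pass either. Of the parents, Rpl3, Rpl10 (-1.18, adjusted p = 0.0352), Rpl36a (-1.08, adjusted p = 0.0285) and Rpl39 (-1.03, adjusted p = 0.0362) were lower, and Rpl7, Rpl22 (-0.61, adjusted p = 0.105) and Rps27 did not pass. The tissue-restricted paralogs were near absent. Rpl3l, a form of striated muscle, had at most 17 reads in a library, Rpl10l, a form of the testis, at most 6, and Rpl39l at most 2, and none of the 3 entered the test.

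Genes that make or accompany ribosomes fell too. Over all genes tested, 12.6% were lower and 13.0% higher, and the list counts that follow are to be read beside these shares. Of 41 tested genes of ribosomal RNA synthesis and ribosome assembly, 28 were lower and 0 higher (median log2 fold change -1.07). Nop56, a core protein of the snoRNPs that methylate ribosomal RNA, had 56.2, 39.2, 36.9, 31.6 and 31.6 CPM in the astrocytes and 200.1, 171 and 133 CPM in the NPCs (log2 fold change -2.10, SE 0.23, adjusted p = 0.000742), and Dkc1, the pseudouridine synthase, fell by 1.68 on the log2 scale (adjusted p = 0.000493). Of 19 translation factors and other TOP mRNAs, 12 were lower and 0 higher (median -0.72), among them Eef1g, a subunit of the elongation factor that reloads Eef1a1 (-1.39, adjusted p = 0.00344), and the histone chaperone Nap1l1 (-1.36, adjusted p = 0.00117). Fau (-0.53, adjusted p = 0.15), which encodes a ribosomal protein fused to a ubiquitin-like protein, did not pass, and Rack1 was not matched to an identifier. Of 18 regulators of ribosomal protein mRNAs 1 passed, Myc, the transcription factor that drives ribosome production, with 7.68 to 15.8 CPM in the astrocytes and 102.3 to 165 CPM in the NPCs (log2 fold change -3.60, adjusted p = 9.54e-05). Larp1 (-0.49, adjusted p = 0.0816), Mtor (0.35, adjusted p = 0.334) and Rps6kb1 (-0.01, adjusted p = 0.984) did not. Of 74 genes of the mitochondrial ribosome, a list added after the values of the members were known, 2 were lower and 0 higher (median -0.23).

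Cell division moved with the ribosomal protein genes. All 8 proliferation markers were lower in astrocytes, where 12.6% of all genes tested were lower and 13.0% higher. Their summed level was 74.9 to 121 CPM in the astrocytes against 1607 to 1991 CPM in the poly(A) NPCs, with Ccnb1 at 0.713 to 1.44 against 116 to 146 CPM. Of 10 astrocyte markers 4 were higher and 1 lower, and Gfap, the astrocyte intermediate filament, had 65.4 to 1977 CPM against 0.669 to 2.12 CPM. Of 7 progenitor markers 3 were lower, and Nes had 61.7 to 121 CPM against 1066 to 1682 CPM. Fibroblast and endothelial markers summed to 26.6 to 303 CPM in the astrocytes, most in Astro_C2, and to 2.91 to 6.34 CPM in the NPCs. Neuron markers (10.99 to 44.4 against 23.3 to 36.0 CPM) and oligodendrocyte markers (27.5 to 73.7 against 45.8 to 65.7 CPM) overlapped, and microglia and pluripotency markers were near 0, at most 1.93 and 2.51 CPM. The part of cell division or of other cell types in the lower ribosomal protein level was not tested.

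Whether ribosomal protein levels differed between NPC clones of the same preparation was examined in the 4 Ch clones. Of 81 members 3 differed (edgeR, adjusted p under 0.05), against 16.6% of all 17095 genes tested, and the highest clone mean was a median of 1.21-fold over the lowest. The largest difference was in Rps4y2 (ENSMUSG00000063171.4, chr6:148354656-148355596), a single-exon relative of Rps4x, with 0.0504 and 0.105 CPM in the libraries of Ch3, 26.7 and 34.5 in Ch5, 24.0 and 25.3 in Ch7 and 0.274 and 0.153 in Ch8 (adjusted p = 3.71e-08). It was close to absent in 2 clones and present in the other two. In the poly(A) libraries it was likewise uneven, at 0 CPM in Astro_129, Astro_C2 and Astro_G4, 0.0465 in NPC_F5 and 0.0135 in NPC_mG2, but 14.1 in Astro_mC3, 22.2 in Astro_mE6 and 4.78 in NPC_mG6. All 5 clones with over 1 CPM were male, and the male Ch3, Ch8 and NPC_mG2 were among those without. None of its reads covered an informative SNP, so its allele was not read.

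Rpl30, which also regulates its own splicing in yeast, had 82.5 and 75.96 CPM in Ch3, 89.3 and 89.5 in Ch5, 84.1 and 78.2 in Ch7, and 105 and 120 in Ch8 (adjusted p = 0.00844). Rpl22l1 had 93.9 and 91.4 CPM in Ch3, 99.2 and 111 in Ch5, 77.4 and 78.4 in Ch7, and 91.9 and 87.2 in Ch8 (adjusted p = 0.0262). Ch8 stood above the other clones for Rpl30, and Ch5 above and Ch7 below the others for Rpl22l1. Rpl13a (adjusted p = 0.0844), Rpl35a (0.0854) and Rps29 (0.0900) came next and did not pass. The summed share of the members was higher in the second than in the first library of every Ch clone, at 1.94% and 2.13% in Ch3, 2.01% and 2.43% in Ch5, 1.88% and 1.97% in Ch7 and 2.01% and 2.63% in Ch8. With the library number as a block, 6 members differed. The number of members that differed rose to 5 without the first Ch5 library, to 15 without the first Ch8 library and to 25 with no filter on low counts. How the share over all genes changed in those runs is not given here.

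Allele-specific reads, those covering a SNP between the strains, were then used to ask how evenly the members were read from both genomes. The Cast ratio, Cast reads as a percent of allele-specific reads, was computed for 76 autosomal members with at least 20 such reads in at least 8 of 12 clones. The share of a member's reads that were allele-specific ran from 0.169% for Rps16 to 75.3% for Rpl30, so the precision differs widely. The mean ratio over clones had a median of 48.9% over the members and 49.2% over all genes tested. Cast and 129 reads differed for 50 of the 76 members (edgeR within clones, adjusted p under 0.05), against 43.9% of all 10824 genes, with 22 members higher from Cast (16.7% of all genes) and 28 higher from 129 (27.2%). With a separate library size for each allele the members split into 26 and 21, and all genes into 2443 and 2086. The members had a median of 3882 allele-specific reads a clone and all genes 798.5, so the test could see smaller differences in the members. A mean ratio outside 40 to 60% was found for 27.6% of the members and 19.3% of all genes.

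The member furthest towards 129 was Rps15 (ENSMUSG00000063457.14, chr10:80292431-80294114), needed for export of the small subunit from the nucleus. Its Cast ratio was 10.0% in the lowest clone, 12.8% in the median and 14.96% in the highest (mean 12.7% ± 1.68, SD, n = 12, from 2716 to 22523 reads a clone, adjusted p = 6.71e-11). Rps3a followed at 19.01% ± 5.92, from 11.1% to 31.8%, with Rpl35a at 31.4% ± 4.74 and Rpl7a at 32.1% ± 3.98. In Rps15 the 12 clones stayed within 5 points of each other, while those of Rps3a were spread more widely. The highest Rps3a ratio, 31.8%, was that of Astro_G4, where the surrounding 20 Mb had a median of 66.1% Cast. Towards Cast stood Rps6, at 70.4% in the lowest clone, 80.8% in the median and 84.4% in the highest (mean 79.2% ± 4.797, adjusted p = 7.39e-08), and among those that followed were Rpl23a (71.2% ± 6.24), Rpl13a (66.2% ± 2.78), Rpl5 (65.4% ± 2.68) and Rpl4. Rpl4 was the steadiest of these, between 62.9% and 65.0% in all 12 clones (mean 64.2% ± 0.644). Rpl7l1 (49.8% ± 0.775), Rpl27 (50.5% ± 1.997) and Rpl8 (49.5% ± 0.871) were closest to 50% among members with over 1000 reads in every clone. Near-full-length genomic copies numbered 78 for Rpl7a, 35 for Rpl23a, 25 for Rpl35a, 16 for Rps6, 7 for Rps3a and 7 for Rpl5. Rps15 had 6, Rpl13a 4 and Rpl4 1, and of those closest to 50% Rpl27 had 11, Rpl7l1 4 and Rpl8 0. The part of reads from such copies in these ratios was not tested. The means and SDs given here pool the Ch and the poly(A) clones, which lay apart for most of the members far from 50%.

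**Figure D3:**
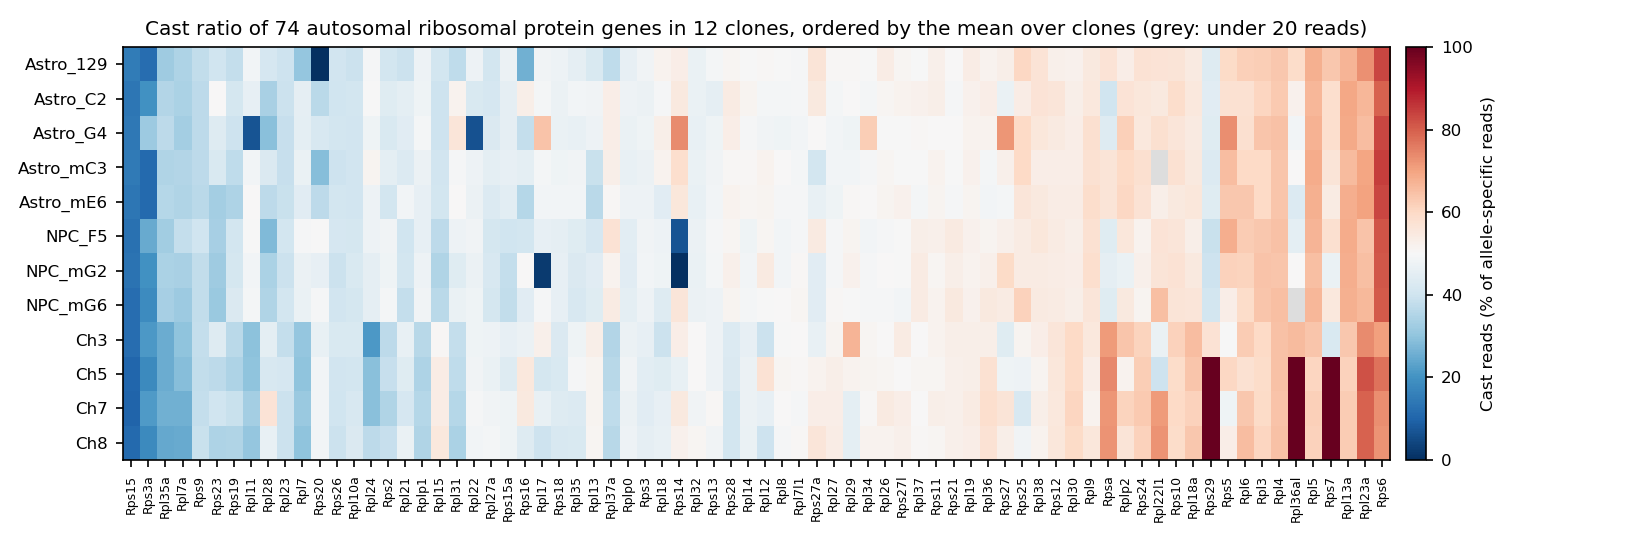
Cast ratio (colour, percent of allele-specific reads, blue for 129 and red for Cast) of 74 of the 76 autosomal members tested (columns, ordered by their mean) in 12 clones (rows). Most columns keep their colour over the clones, as Rps15 at 12.7% and Rps6 at 79.2% do, and single dark cells mark Rpl11 and Rpl22 in Astro_G4, Rps20 in Astro_129, Rpl17 and Rps14 in NPC_mG2, and the 3 chromosome 12 genes in Ch5, Ch7 and Ch8.

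Ratios also differed between the Ch clones and the poly(A) clones. Of 74 members with a ratio in all clones, the 4 Ch clones did not overlap the 8 poly(A) clones for 26, of which 12 were higher and 14 lower in the Ch clones, against 10.3% of 9581 genes. Rpsa had 71.3%, 74.2%, 72.1% and 72.5% in Ch3, Ch5, Ch7 and Ch8 but 40.2% to 56.8% in the poly(A) clones (48.4% ± 6.95, SD, n = 8). Rpl24 had 21.4% to 36.9% in the Ch clones and 45.4% to 51.5% in the poly(A) clones. Rpl15 had a mean of 53.3% in the Ch clones and 38.8% in the others. For 8 of the 26 the means were more than 10 points apart, among them Rps29, whose chromosome is unequal in 3 Ch clones. Rpsa has 16 near-full-length genomic copies, Rpl15 20 and Rpl24 6. The Ch clones are all male NPCs. The poly(A) clones include 5 astrocyte clones and 4 female ones, so their means also mix cell type and sex. They include the male NPC clones NPC_mG2 and NPC_mG6 too. That these also lay apart from the Ch clones follows from how the 26 members were chosen and is no separate check. Preparation, clone and sequencing depth, and in part cell type and sex, differ together between the Ch and the poly(A) clones. They cannot be told apart here.

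**Figure D4:**
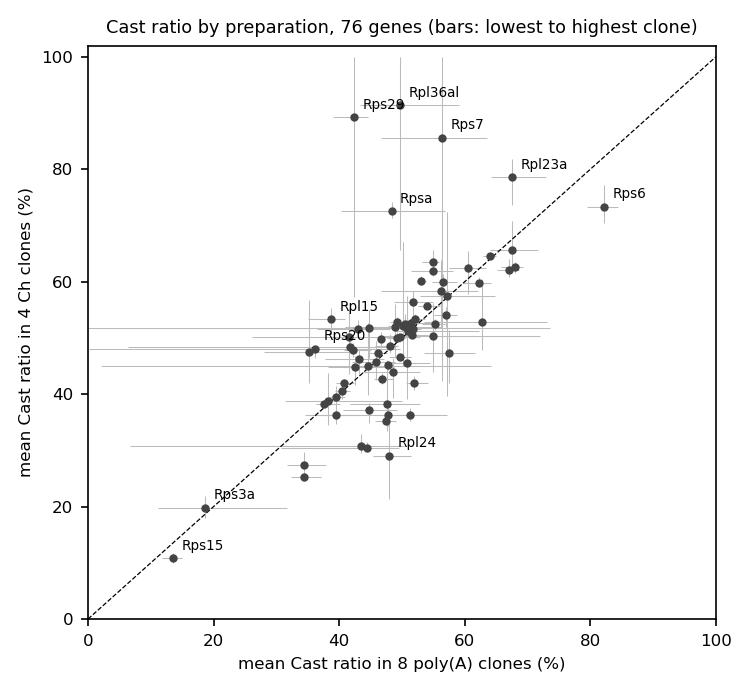
Mean Cast ratio in the 4 Ch clones (vertical axis, percent) against that in the 8 poly(A) clones (horizontal axis, percent) for 76 members, with bars from the lowest to the highest clone and a dashed line where both are equal. Rps15 and Rps3a lie low and Rps6 high on both axes, Rpsa lies at 72.5% against 48.4%, and the tall bars of Rps29, Rps7 and Rpl36al reach 100%.

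Between astrocytes and poly(A) NPCs the balance differed for 1 of 74 members, against 1.08% of 10100 genes tested (edgeR, interaction of allele and cell type). This was Rps15a, a small subunit protein, with Cast ratios of 47.1%, 45.5%, 45.5%, 46.0% and 44.8% in Astro_129, Astro_C2, Astro_G4, Astro_mC3 and Astro_mE6 and of 40.02%, 37.9% and 37.8% in NPC_F5, NPC_mG2 and NPC_mG6 (log2 difference 0.43, SE 0.05, adjusted p = 0.0237). The groups did not overlap, but the Ch clones, also NPCs, had 43.6% to 47.8%, at the level of the astrocytes. The call was lost without Astro_C2, Astro_mC3, Astro_mE6 or any of the 3 NPC clones.

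Some clones read whole chromosomes unequally, and 14 members lay in such regions (median ratio of the surrounding 20 Mb outside 40 to 60%). In Ch5, Ch7 and Ch8 chromosome 12 was read from Cast alone, with a median of 100% over its genes, and so were its members. Rps7 had 290 of 290, 336 of 336 and 269 of 269 reads from Cast in Ch5, Ch7 and Ch8 (exact 95% lower bounds 98.7%, 98.9% and 98.6%, which cover counting error only), Rps29 3259 of 3260, 2759 of 2760 and 3247 of 3247, and Rpl36al 28 of 28, 28 of 28 and 43 of 43. Ch3, with a median of 48.2% to 48.8% in the windows of the 3 genes, had 42.4% for Rps7, 57.2% for Rps29 and 65.6% for Rpl36al. These clones therefore had next to no 129 reads of the members while Ch3 had both alleles. On chromosome 18 of NPC_mG2 (median 0.0630% Cast in the windows of both members), Rps14 had 0 of 187 Cast reads, which allows up to 1.95%. Rpl17, a large subunit protein at the tunnel exit, had 68 of 3293, or 2.06% (exact 95% interval 1.61 to 2.61%), so more than its surroundings. The coding sequence of Rpl17 has 54 near-full-length genomic copies, and their part in these reads was not tested.

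Level went with ratio in Astro_G4. Rpl11, which carries the 5S ribosomal RNA together with Rpl5 and can bind Mdm2, and Rpl22 both lie at the distal end of chromosome 4 (chr4:136049354-136053393 and chr4:152324436-152334082), where the windows had medians of 10.0% and 7.27% Cast in this clone. The Cast ratio of Rpl11 was 6.68% in Astro_G4 and 46.0% to 50.4% in the other astrocytes, and its level 178 CPM against 273 to 447 CPM. Rpl22 had a ratio of 6.42% against 42.3% to 47.5% and a level of 121 CPM against 189 to 270 CPM. Both were thus the lowest of the 5, at 0.524 and 0.548 times the mean of the others, beside a median of 0.513 for the 227 genes beyond 130 Mb on that chromosome.

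Rpl22 protein is known to bind the mRNA of its paralog Rpl22l1 and to lower it. Rpl22l1 had 159 CPM in Astro_G4 and 41.6, 48.5, 55.0 and 87.8 CPM in Astro_129, Astro_C2, Astro_mC3 and Astro_mE6, so Astro_G4 stood 2.73 times over the mean of the others. Rpl22 had 208, 189, 219 and 270 CPM in those other astrocytes, in the same order, so Astro_mE6 was the highest of them in both genes. In NPC_F5, NPC_mG2 and NPC_mG6, Rpl22 had 342, 327 and 254 CPM and Rpl22l1 159, 192 and 121 CPM. Rpl22l1 lies on chromosome 3, whose genes were at a median of 1.33 times the others in Astro_G4, with a chromosome median of 66.0% Cast. The other members of that chromosome were at 1.45 (Rps3a), 1.46 (Rpl34) and 1.25 (Rps27) times the mean of the others, and those of chromosome 18 (median 1.36 times, 65.2% Cast) at 1.59 (Rps14) and 1.56 (Rpl17). The level of Rpl22l1 in Astro_G4 rests on a single library, and the part of Rpl22 or of chromosome 3 in it was not tested. In Astro_129, chromosome 1 was at 34.2% Cast with a median of 1.37 times the level of the others, and its members Rpl7 (30.8%, 1.36 times), Rpl31 (37.1%, 1.47 times) and Rpl37a (37.3%, 1.20 times) went along. All 4 Ch clones also had 32.2% to 32.7% for chromosome 1, with Rpl7 at 29.7% to 31.5%.

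**Figure D5:**
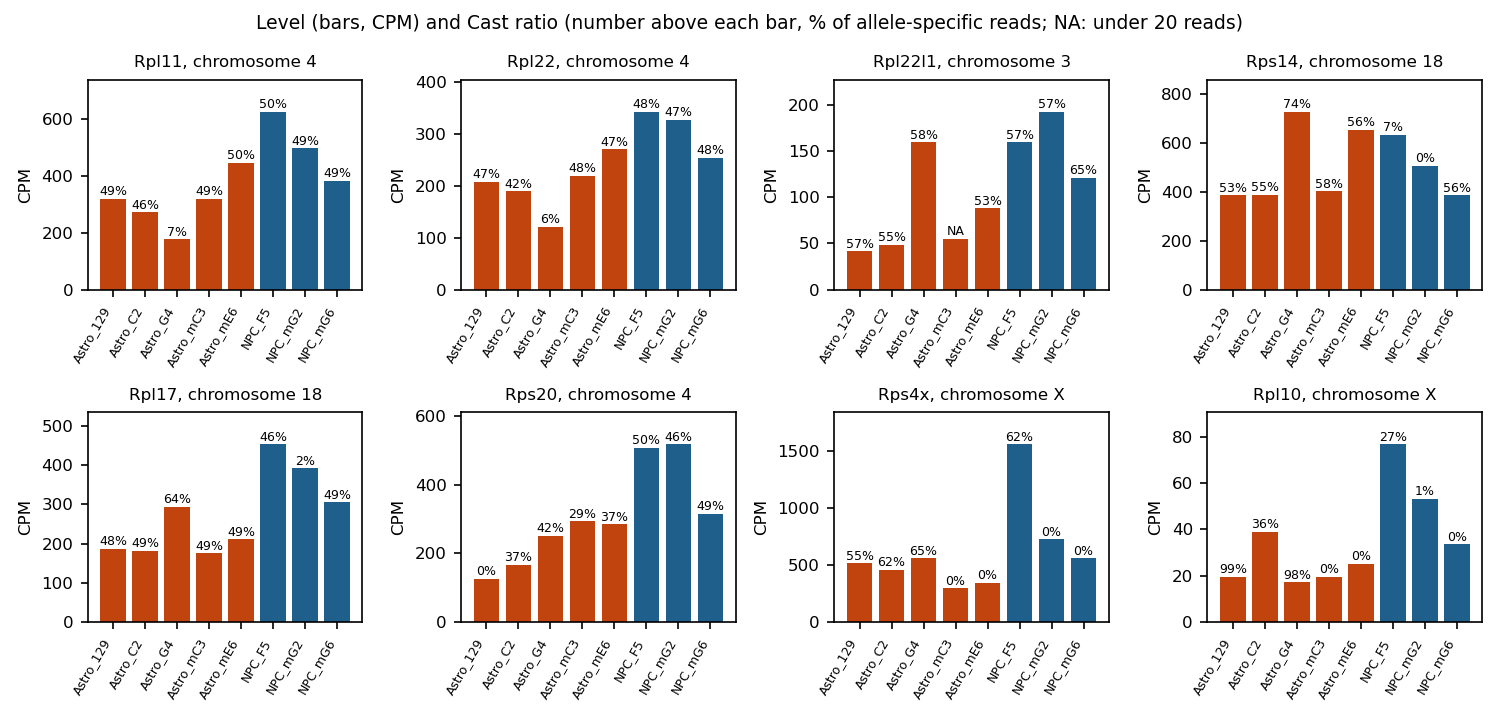
Level in CPM (vertical axis, 1 bar a library, orange for astrocytes and blue for poly(A) NPC) of 8 members, with the Cast ratio above each bar. Rpl11 and Rpl22 are lowest and Rpl22l1 is highest among the astrocytes in Astro_G4, Rps20 is lowest in Astro_129 at a ratio near 0, and Rps4x is higher in the female clones Astro_129, Astro_C2, Astro_G4 and NPC_F5 than in the male clones of the same cell type.

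Rps20 and Rps14 had low Cast ratios in single clones outside the regions above, and they are described here because of their values. Rps20 (ENSMUSG00000028234.6, chr4:3831584-3835655), a small subunit protein, had 9 Cast reads of 6057 in Astro_129, or 0.149%, whereas its neighbours Tgs1 and Chchd7, 257 kb before and 107 kb after it, had 46.4% and 50.5%. The other neighbours examined had 43.6% to 51.0%, except Impad1, 931 kb after it, which had 25.9% of 16134 reads from Cast. Its level there was 126 CPM, the lowest of the astrocytes, which had 166 (Astro_C2), 250 (Astro_G4), 294 (Astro_mC3) and 284 CPM (Astro_mE6) at ratios of 36.6%, 42.1%, 28.8% and 37.1%. The NPC clones had 45.9% to 49.7%. Rps14 in NPC_F5 had 96 Cast reads of 1392, or 6.90%, while Ndst1 and Tcof1, 90.1 kb before and 39.1 kb after it, had 49.1% and 51.3%. The other neighbours examined had 42.3% to 49.7%, except Synpo, 181 kb before it, at 33.6%. Allele-specific reads made up 2.04% of its reads in that library and 0.284% to 0.702% in the other poly(A) libraries, and 1296 of the 1392 were assigned to 129.

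The X-linked members were Rps4x, Rpl10, Rpl39 and Rpl36a. Male clones have only the 129 X chromosome, so their Cast reads measure misplaced reads. Over the 8 male clones, Rps4x had 59 Cast reads of 95818, or 0.0616% (exact 95% interval 0.0469 to 0.0794%), and Rpl10 had 8 of 3721, or 0.215% (0.0929 to 0.423%). Few reads of these genes were therefore placed on the wrong allele, while reads from copies that carry the 129 bases would not be seen in this way. Rpl39 and Rpl36a had 2 and 0 allele-specific reads in all clones, so their alleles could not be read.

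In the 4 female clones the X chromosome was read almost wholly from Cast, with a median over genes of 99.95% in Astro_129, 99.7% in Astro_C2, 98.9% in Astro_G4 and 99.4% in NPC_F5. Rpl10, the protein that joins last in the large subunit, followed this in Astro_129 (98.8% of 242 reads) and Astro_G4 (98.3% of 173), but had 36.3% of 732 reads in Astro_C2 and 26.6% of 1089 in NPC_F5. Rps4x, the X-linked form of a small subunit protein, was read from both X chromosomes in all 4 (54.9%, 61.6%, 65.3% and 61.8% in Astro_129, Astro_C2, Astro_G4 and NPC_F5, from at least 17026 reads). Of the X-linked genes with a ratio, 46 of 386 in Astro_129, 111 of 406 in Astro_C2, 94 of 397 in Astro_G4 and 134 of 413 in NPC_F5 had 10 to 90% Cast, Rps4x among them. Its level was 516, 457 and 558 CPM in the female and 297 and 346 CPM in the male astrocytes, and 1561 CPM in the female and 724 and 559 CPM in the male NPCs. The female values lay above the male ones in both cell types. Rpl10 was likewise highest in the clones that read it from both alleles, with 38.9 CPM in Astro_C2 against 17.0 to 25.1 in the other astrocytes and 76.7 CPM in NPC_F5 against 53.0 and 33.6. Sex and cell type were both uneven between the groups, and Rps4x, at 2.18-fold lower in astrocytes, had an adjusted p of 0.0502.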

How the data were processed

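Total RNA of 16 libraries was sequenced. Per the labels and the study's methods, the authors aligned read pairs with TopHat2 (2.1.0) and Bowtie2 to a GRCm38 genome masked at strain SNPs, assigned them to an allele with SNPsplit and summed reads over genes by featureCounts (1.5.1) in a stranded mode. The deposited counts (Cast, 129 and all reads, not normalized) were used. The deposited Cast share, a fraction, was not used, and ratios were recomputed from the counts. The counting options given in the methods do not turn on reads that map to several places, which featureCounts then leaves out by default, so members with near-identical copies may lose reads, and reads aligned to a single wrong copy may be misplaced. Of the identifiers, 32722 had a symbol, and RefSeq (GRCm38.p6) placed 26023 on the genome.

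Expression was tested with edgeR 4.0.16 (quasi-likelihood, TMM, filterByExpr) under R 4.3.3, astrocytes against poly(A) NPC and among the 4 Ch clones (any difference), and is given as CPM of the effective library size. Lists' summed levels and member shares use plain library totals. Allelic balance was tested with edgeR on Cast and 129 counts within clones, the 2 libraries of a Ch clone summed as in the study, for autosomal genes reaching a minimum of 20 allele-specific reads for no fewer than 8 of 12 clones (in all 8 poly(A) clones for the interaction). Adjusted p is Benjamini-Hochberg over all genes tested. Genomic copies were counted with blastn 2.17.0. Intervals for single ratios are exact 95% binomial ones. Summaries used pandas 2.3.3, scipy 1.17.1 and numpy 2.4.6 in Python 3.11.15, with plots by matplotlib 3.10.9. Tested on simulated data with 100 genes for each fold, the expression step recovered 83 genes at 2-fold and 100 at 4-fold, and the interaction step recovered 17 at 1.5-fold and 81 at 2-fold.

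The members and lists were chosen with earlier results of these data known. Genes were named by a rule: the 10 called members with the lowest and the 10 with the highest fold change, paralogs with an l suffix and their parents, the 5 with most reads, the 6 with the smallest p among Ch clones, the 10 called members furthest from and the 3 closest to a ratio of 50%, members called in the interaction, X-linked members, up to 10 in regions of unequal balance, and in each list the 2 with the smallest p in each direction. Rps20, Rps14 in NPC_F5, Rps2, Rpl24, Rpl34, Larp1, Mtor and Rps6kb1 were added after their values were seen. Some genes that the rule names are not reported here, nor drawn by name. Alternatives were DESeq2 (1.42.0), limma (3.58.1), other scalings, filters and read minimums, a replicate block, a sex covariate, subsets of clones, and leaving out each library or clone.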

Additional observations from a re-analysis of the deposited data

Results flagged for a closer look

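Of 131 groups of 4 or 5 values checked for a lone high or low one, 12 had one. For independent groups chance alone gives about 1 in 20. Most of the flagged genes, however, were named because they lie in regions of unequal balance, and members of the same region move together. The count therefore cannot be set against chance. In Astro_G4 the Cast ratio stood apart from the other astrocytes for Rpl11 (6.68% against 46.0 to 50.4%), Rpl22 (6.42% against 42.3 to 47.5%), Rpl17 (64.1% against 48.3 to 49.2%), Rps14 (73.6% against 53.2 to 58.4%) and Rps27 (72.0% against 46.6 to 53.1%), all in regions read unequally in that clone. In Astro_129 it did so for Rpl7 (30.8% against 44.3 to 46.8%) and Rpl37a (37.3% against 50.6 to 53.4%), both on chromosome 1. In Astro_C2 Rps6 had 79.5% against 83.4 to 84.4%. Among the Ch clones, Ch3 was alone in having both alleles of Rps7 (42.4%), Rps29 (57.2%) and Rpl36al (65.6%). By level, Rpl36, a large subunit protein, had 175 CPM in Astro_mE6 and 122 to 136 CPM in the other astrocytes. The difference in allelic balance between astrocytes and poly(A) NPCs passed the test for Rps15a (adjusted p = 0.0237).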

How the results depend on the processing

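Under every scaling, filter, tool and left-out library run, most called members were lower in astrocytes. Called higher were 1 member without an expression filter and 1 without NPC_F5. How many members were called depended on single clones. The count was 57 of 81 with all libraries, but 26 without NPC_mG2, 28 without NPC_F5 and 36 without Astro_mC3. Leaving out any other single library gave 46 to 64. The shares of all genes called in those runs are not given here. With each library left out, the astrocyte to NPC ratio of summed shares was 0.451 to 0.587 (0.513 without mitochondrial genes, an alternative chosen after seeing the data). Among the Ch clones the count of 3 was 7 with DESeq2, 25 without an expression filter, 6 with the replicate block, and 2 to 15 when each library was left out. Correlations of deviations between same-numbered libraries ran from -0.18 to 0.281, under the bar for pairing, although the summed share of the members was higher in the second library of all 4 clones. The allelic count was 46 to 52 with each clone left out, and the astrocyte against NPC count 0 to 1, or 2 with at least 50 reads. The pooled Cast share of Rps4x in male clones was 0.0498 to 0.0694% with each clone left out, also chosen after seeing the data. The log2 ratio of Cast to 129 changed sign for some members. With separate allele library sizes it was 0.0558 for Rpl7l1 and 0.0375 for Rpl8. Without unequal regions (limma) it was 0.19 for Rpl37a and -0.35 for Rps29. In poly(A) clones alone it was -0.0414 for Rpl27, -0.0119 for Rpl36al, 0.0774 for Rpl37a and -0.44 for Rps29. In the Ch clones alone it was 0.00927 for Rpl7l1, 0.000455 for Rpl8 and 0.10 for Rps14, which ranged from -0.393 to 0.0728 with each clone left out and was 0.0488 without NPC_F5. The causes were not tested. Members with few allele-specific reads, such as Rps14, Rps27 and Rpl36al, are limited by depth.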
